A study of Mus musculus with 16 samples.

Results

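Genes that mark the p53 response and the BCL2 family of death regulators were followed in mouse erythroblasts that regained the erythroid factor KLF1 or its Nan mutant: Bbc3, Bax, Bcl2, Sesn1, Phlda3 and Trp53i13. They were chosen by name, with earlier results of these data known. Counts over them therefore describe these 6 genes and not p53 or death genes at large. Every row with one of these names in the expression tables and every peak whose nearest gene is one of them was taken. All 6 of the 6 genes had a row among the 1556 genes of the table of new transcription, and 0 had a row among the 793 genes of the fetal liver table. Of 5326 KLF1 peaks 4 named a member, and of 2758 Nan-KLF1 peaks 2 did.

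K1 cells are erythroblasts that lack KLF1. The K1-ER lines (clones A and C) carry KLF1 fused to the ligand-binding part of the oestrogen receptor, and the K1-NanER lines (clones B and X) carry the same fusion with the Nan mutant, which has an altered zinc finger in its DNA-binding domain. RNA made during 1 h with 500 uM 4-thiouridine (4sU) was sequenced from 2 libraries in total for each fusion and 2 of parental K1 cells. All these cells were given 200 nM 4-hydroxytamoxifen per the labels (the header of the K1 level, unlike the others, does not name it). Binding was measured by ChIP-seq after 3 h of 4-hydroxytamoxifen in 1 library per factor, made from 3 pooled replicates, with 1 input library each. Fetal livers of embryonic day 14.5 were 3 Nan/+ and 3 wild-type (+/+), so a Nan/+ liver still has a normal Klf1 allele, whereas K1 cells have no KLF1 of their own. Both comparisons of 4sU RNA share the K1 libraries as reference. The lines compared are different clones, so clonal differences enter every value, and nothing in the labels says that the K1 libraries came from separate cultures.

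p53 is a transcription factor that is held at low levels by MDM2 and rises after DNA damage or ribosomal stress, when it switches on genes for cell cycle arrest, metabolic restraint and death. The BCL2 family controls the mitochondrial outer membrane: BH3-only proteins such as PUMA, the product of Bbc3, bind and block guardians such as BCL2, which frees pore formers such as BAX to release cytochrome c. Erythroblasts depend on survival signals from erythropoietin, and KLF1 is the factor that switches on globin, haem and membrane genes in them by binding CACCC-type elements.

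Levels of new RNA are in FPKM, which is scaled per kilobase of the gene model used for counting. How that counting was done is not given in the sources used here, so levels of different genes are compared only as deposited. The authors' deposited table gives 1 level per group, with no error, and a q value for each line against K1, and a gene was called when q was at most 0.05. It lists only genes called in K1-ER, in K1-NanER or in both, so each member had to be called at least once. Against K1, the authors' deposited table called 5 of the 6 members in K1-ER, where 49.4% of all listed genes were called. Of those, 4 members rose, beside 37.9% of the table, and 1 fell, beside 11.5%. In K1-NanER the authors' deposited table also called 5 members, where 75.7% of listed genes were called. There 4 members rose, beside 47.4% of the table, and 1 fell, beside 28.3%. Bbc3, Sesn1, Phlda3 and Trp53i13 rose in both lines, beside 289 of all 1556 listed genes. Bcl2 fell in K1-ER and Bax fell in K1-NanER.

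The 250 bases before the start of 3 members are given because the binding data or the p53 pathway bear on them. Bbc3 is known for a p53 response element in its promoter, and a match to it is in capitals. Sesn1 and Trp53i13 have peaks over their start, and their matches to CCNCNCCC, the known binding pattern of normal KLF1, are in capitals on either strand, overlaps included. All are RefSeq sequences of build GRCm38.p6, read in the direction of the gene, at chr7:16309333-16309582 (plus strand), chr10:41810324-41810573 (plus strand) and chr11:77513274-77513523 (minus strand).
Bbc3: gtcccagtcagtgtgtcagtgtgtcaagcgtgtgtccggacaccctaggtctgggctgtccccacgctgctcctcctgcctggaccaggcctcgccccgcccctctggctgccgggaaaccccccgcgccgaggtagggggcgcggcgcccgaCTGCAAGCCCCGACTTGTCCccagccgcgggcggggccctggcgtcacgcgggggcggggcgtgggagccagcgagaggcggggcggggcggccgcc
Sesn1: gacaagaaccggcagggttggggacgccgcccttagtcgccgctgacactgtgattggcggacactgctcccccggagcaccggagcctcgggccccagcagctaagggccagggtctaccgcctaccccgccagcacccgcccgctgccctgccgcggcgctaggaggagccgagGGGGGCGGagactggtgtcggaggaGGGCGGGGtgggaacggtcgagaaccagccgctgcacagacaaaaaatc
Trp53i13: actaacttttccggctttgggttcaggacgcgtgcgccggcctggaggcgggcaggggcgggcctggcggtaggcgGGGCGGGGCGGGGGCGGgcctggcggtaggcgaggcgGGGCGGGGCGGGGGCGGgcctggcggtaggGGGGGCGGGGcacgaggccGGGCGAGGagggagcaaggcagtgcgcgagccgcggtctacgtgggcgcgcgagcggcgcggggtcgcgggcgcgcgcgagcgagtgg

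Bbc3 encodes PUMA, the BH3-only protein that carries much of the killing by p53. It lies on chromosome 7 from 16894932 to 16903683 in mm9, on the plus strand per RefSeq. In the authors' deposited table its new RNA stood at 34.4 FPKM in K1, against 362 FPKM in K1-ER and 95.5 FPKM with the Nan fusion. Both inducible lines lay above K1, and K1-ER lay highest. The authors' deposited table put the change at log2 3.40 in K1-ER (q = 0.00213) and at 1.47 in K1-NanER (q = 0.00213), which are 10.5-fold and 2.78-fold rises. In the authors' deposited table the level in K1-ER was 3.79 times that in K1-NanER. These lines were not tested against each other there. The listed neighbours of Bbc3 within 100 kb, Dhx34 and Zc3h4, had no call in K1-ER and fell in K1-NanER (log2 -2.12 and -1.23).

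KLF1 had 2 peaks in Bbc3 and Nan-KLF1 had none that named it. Fold enrichment here is the authors' ChIP signal divided by input, and it ranks a peak only within its own list. The intron peak at chr7:16895219-16896369 had its summit 545 bp after the gene start, a fold enrichment of 67.5 and no central motif, as 21.1% of KLF1 peaks. The stronger peak, chr7:16897893-16899488, overlapped coding sequence, had its summit 4076 bp after the start, a fold enrichment of 119 and the motif CCCCACCC, and stood above 73.4% of the KLF1 list, whose median was 75.6. Only 1.43% of KLF1 peaks carry the coding label. A KLF1 and a Nan-KLF1 peak that both named Ccdc9 overlapped by 725 bp upstream of Bbc3, with fold enrichments of 187 and 68.2. The Nan-KLF1 peak of that pair was the nearest to Bbc3, at 13.8 kb.

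The first Bbc3 start and its 250 bases lie outside both KLF1 peaks, the nearer of which begins 287 bp after the start. RefSeq gives 2 further starts, 678 and 848 bp after the first, which are inside the span of the intron peak. The Bbc3 locus has the same length in both builds, 8752 bp from the first start. The stretch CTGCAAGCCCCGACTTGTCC, in capitals in the sequence given for Bbc3, starts 97 bases before the first start and matches the p53 element with 3 mismatches. Of 32544 promoter windows in RefSeq (250 bases before to 50 after a start), 1.39% held such a match under the same rule.

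Bax encodes the pore former through which the mitochondrial outer membrane is opened. It lies on chromosome 7 from 52717065 to 52722268, on the minus strand. The authors' deposited table gave 87.8 FPKM in K1, 90.6 FPKM in K1-ER but 36.0 FPKM in K1-NanER. K1 and K1-ER were at a similar level and K1-NanER was lower. The authors' deposited table made no call in K1-ER (log2 0.04, q = 0.972) and called a fall of log2 -1.29 in K1-NanER (q = 0.0177), a level 2.44 times lower. In the same order the authors' deposited table gave the neighbouring ferritin light chain gene Ftl1 (1808 bp away) 1033, 764 and 325 FPKM. Ftl1 had no call in K1-ER (q = 0.607) and a fall of log2 -1.67 in K1-NanER (q = 0.00213). Of the other listed neighbours within 100 kb, Nucb1 and Ruvbl2 also had no call in K1-ER and fell in K1-NanER. Ppp1r15a instead rose in K1-ER (log2 2.11, q = 0.00669) with no call in K1-NanER. Hsd17b14, at 0.1 FPKM in K1-ER, was called there. It had no call in K1-NanER (q = 0.533), where it was lower still at 0.0418 FPKM.

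No peak of either list named Bax. The nearest KLF1 peak, which named Ftl1, lay 244 bp beyond the end of Bax with a fold enrichment of 40.9, and the nearest Nan-KLF1 peak was 57.9 kb away. The Bax promoter window held 4 matches to CCNCNCCC and none to the p53 element. The windows of Bcl2, Phlda3 and Trp53i13, of the first Sesn1 start and of the further Bbc3 starts also held no match to that element. No match says only that these letters are not in the window.

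Bcl2 encodes the founding guardian of the family, which holds BAX and the BH3-only proteins in check. It lies on chromosome 1 from 108434756 to 108610867, on the minus strand. Its new RNA in the authors' deposited table was 7.74 FPKM in K1, 0.1 FPKM in K1-ER, a fixed value that 29 genes share there, then 0.367 FPKM in K1-NanER. The authors' deposited table called the fall in K1-ER (q = 0.00213). Since a shared 0.1 FPKM reads as a fixed stand-in value and not as a measured level, no fold is given. In K1-NanER the authors' deposited table has log2 -4.40 (p = 0.0061, q = 0.0800), which misses the threshold, and with a pseudocount of 1 FPKM the value was -2.68. Both inducible lines were below K1, and the miss in K1-NanER does not show that Bcl2 was at its K1 level there.

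Bcl2 was not named by a peak of either factor. The nearest Nan-KLF1 peak lay 44.8 kb from the locus in Kdsr, with a fold enrichment of 87.1, and the nearest KLF1 peak lay 114.5 kb away. Of the 6 members, Bcl2 was the farthest from any KLF1 peak.

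**Figure D1:**
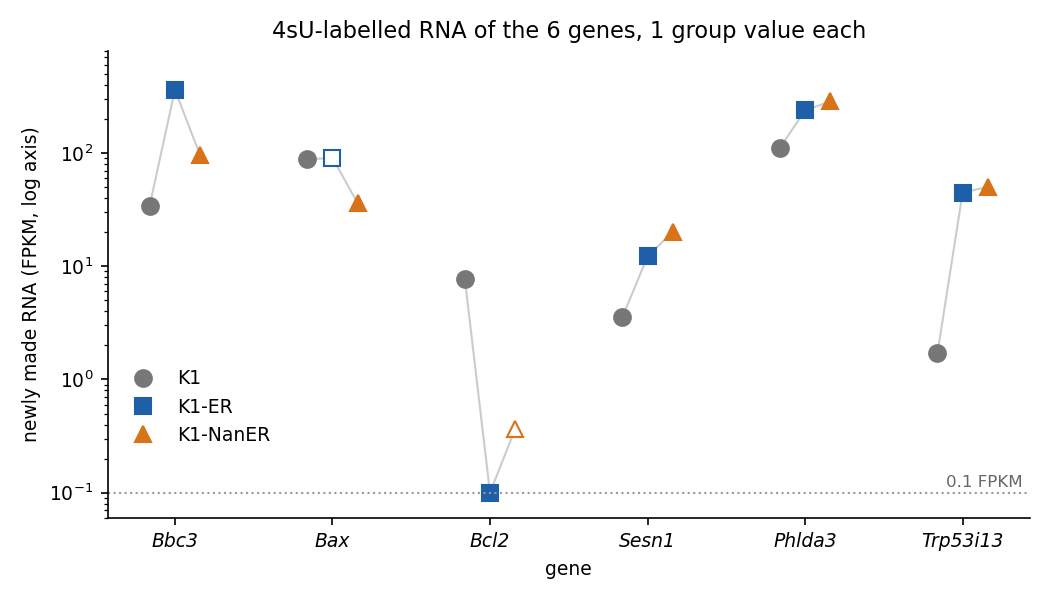
New RNA of the 6 genes in FPKM on a log axis, 1 point per group (K1, K1-ER and K1-NanER, joined by a line for each gene), filled where the group was called against K1 at q of at most 0.05 or is K1 itself, and open where it was not. Bbc3 peaks in K1-ER at 362 FPKM, Bcl2 is at the fixed value of 0.1 FPKM in K1-ER, and Bax is lowest in K1-NanER at 36.0 FPKM.

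Sesn1 encodes sestrin 1, a stress-induced protein that restrains the growth kinase mTORC1. It lies on chromosome 10 from 41530380 to 41628242, on the plus strand. The authors' deposited table gave 3.54 FPKM in K1, with 12.2 FPKM in K1-ER against 20.2 FPKM in K1-NanER. Both lines exceeded K1, and K1-NanER was the higher of them by 1.65 times. The authors' deposited table has rises of log2 1.78 in K1-ER (q = 0.0127) and of 2.51 in K1-NanER (q = 0.00213), which are 3.44-fold and 5.70-fold.

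Sesn1 was the only member named in both peak lists. Its Nan-KLF1 peak, chr10:41529715-41530462, is a promoter peak that spans the gene start, from 665 bp before it to 82 bp after it. It had a fold enrichment of 146, above 69.8% of the Nan-KLF1 list, whose median was 107. Its central motif was CCCAACCC, which is no match to CCNCNCCC and which 1.09% of Nan-KLF1 peaks carry. The KLF1 peak that named Sesn1, chr10:41538470-41538927, is elsewhere, in an intron with its summit 8396 bp after the start. It had a fold enrichment of 98.1 and the motif CCACGCCC, found in 17.4% of KLF1 peaks and 5.98% of Nan-KLF1 peaks.

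The Sesn1 start is also covered by a KLF1 peak that the list gives to the neighbouring gene Cep57l1. This peak, chr10:41529511-41530571, had a fold enrichment of 488, above 98.6% of the KLF1 list, and the motif CCCAGCCC, also no match to CCNCNCCC. It covered all 748 bp of the Nan-KLF1 peak of Sesn1, and the summits were 96 bp apart. The authors' own intersection does not mark this pair. Among the 1241 overlapping pairs of the lists, pairs left unmarked had summits at least 51 bp apart, and every marked KLF1 peak had a Nan-KLF1 summit within 50 bp. By location, then, both factors had a peak over the Sesn1 start, while by the names in the lists Nan-KLF1 alone did.

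In the sequence given for Sesn1, 2 matches to CCNCNCCC lie 74 and 49 bases before the start, and 49.7% of all promoter windows hold at least 1 match. RefSeq has a second start of Sesn1, 76865 bp after the first and far from these peaks. Its window held 5 matches and a p53 element with 3 mismatches, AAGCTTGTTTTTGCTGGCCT, which begins 173 bases before that start.

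Phlda3 encodes a small pleckstrin-homology protein that competes with the kinase AKT for membrane lipids and so dampens survival signalling. It lies on chromosome 1 from 137662662 to 137665711, on the plus strand. In the authors' deposited table it had the highest new RNA of the 6 genes in K1, at 110.7 FPKM, and stood at 239 FPKM in K1-ER against 285 FPKM in K1-NanER. The lines differed from each other by 1.20 times. The authors' deposited table put the rises at log2 1.11 in K1-ER (q = 0.0205) and 1.36 in K1-NanER (q = 0.00213), or 2.15-fold and 2.58-fold. These are the smallest rises among the 4 members that rose in both lines.

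A single distal Nan-KLF1 peak, chr1:137656252-137656647, named Phlda3. Its summit lay 6212 bp before the gene start, it had a fold enrichment of 97.5 with the motif CCCCTCCC, and it stood above 36.1% of its list. No KLF1 peak named Phlda3. The nearest one, with a fold enrichment of 143, was 19.1 kb from the locus and named Tnni1.

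Trp53i13 is named for its induction by p53. It lies on chromosome 11 from 77321601 to 77326775, on the minus strand. The authors' deposited table gave 1.70 FPKM in K1, the lowest K1 level of the 6 genes, then 44.8 FPKM in K1-ER against 50.2 FPKM in K1-NanER. Both lines were far above K1 and within 1.12 times of each other. The authors' deposited table put these rises at log2 4.72 and 4.88 (both q = 0.00381), or 26.3-fold and 29.5-fold. With a pseudocount of 1 FPKM they were 4.08 and 4.25. Among the 1428 genes of the authors' deposited table with no group at 0.1 FPKM, its rise ranked 13 from the top in K1-ER, and in K1-NanER it ranked 4.

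The KLF1 peak of Trp53i13, chr11:77326048-77327311, carries the intron label but spans the gene start, from 536 bp before it to 727 bp after it. Its fold enrichment was 149, above 80.9% of the KLF1 list, with the motif CCCCGCCC. The sequence given for Trp53i13 held 9 matches to CCNCNCCC, as many as the fullest window of Bbc3 and more than any window of the other 4 members. No Nan-KLF1 peak named Trp53i13. Nan-KLF1 peak chr11:77327605-77328676, with a fold enrichment of 380 and above 97.4% of its list, lay 830 bp before the start and named Abhd15. It overlapped a KLF1 promoter peak of Abhd15 by 846 bp, with summits 37 bp apart, and the authors marked this pair as shared. That KLF1 peak had a fold enrichment of 60.7.

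All 3 neighbours of Trp53i13 that are listed within 100 kb, Abhd15, Git1 and Ankrd13b, rose in both lines, beside 289 of all 1556 listed genes. In the order K1, K1-ER, K1-NanER, the authors' deposited table gave Abhd15 2.97, 35.6 and 80.2 FPKM, rises of log2 3.59 and 4.76 (both q = 0.00213). Git1, 324 bp away, was given as 26.0, 66.9 and 70.7 FPKM in the authors' deposited table, rises of log2 1.36 and 1.44 (both q = 0.00213). The deposited loci of Trp53i13 and Abhd15 lie 1843 bp apart in mm9, while their RefSeq models overlap by 805 bp in GRCm38. Whether the authors' counting used strand is not given in the sources used here. If it did not, and the models used for counting overlapped, unlike the deposited loci, reads in the shared stretch could not be told apart.

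**Figure D2:**
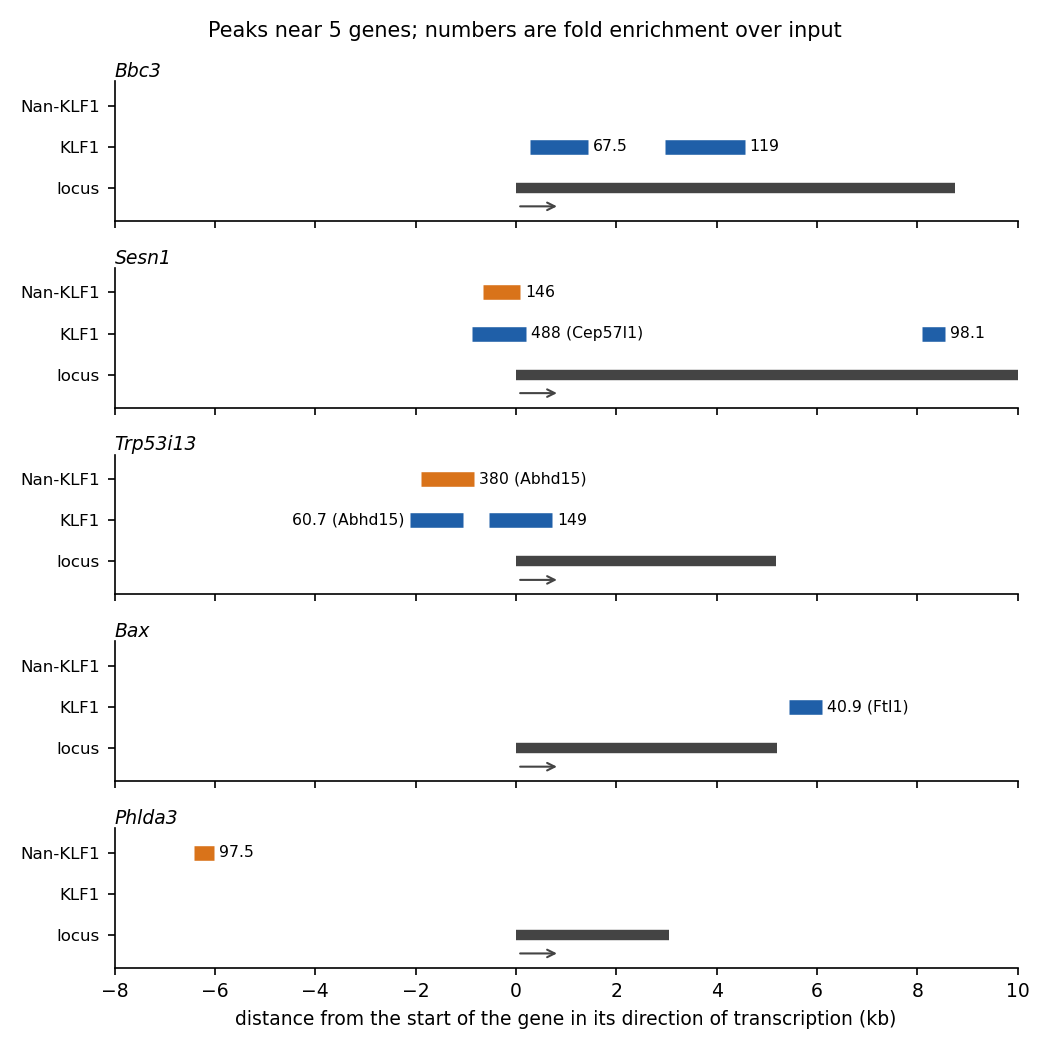
Peaks around 5 of the genes, by distance from the gene start in kb in the direction of transcription, with the locus in grey, KLF1 peaks in blue and Nan-KLF1 peaks in orange, each with its fold enrichment and, where the list names another gene, that name. Both factors have a peak over the Sesn1 start, KLF1 alone has peaks inside Bbc3, and Bcl2 is not drawn because its nearest peak lies outside the plotted distances.

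By the names in the lists, 3 of 6 members had a KLF1 peak (Bbc3, Sesn1 and Trp53i13), beside 45.8% of the genes in the 4sU table. For Nan-KLF1 it was 2 of 6 (Sesn1 and Phlda3), beside 26.5%. Both shares are near those of the table. The 4 members that rose in both lines each had a named peak of at least 1 factor, as did 74% of the 289 genes that rose in both lines and 50.6% of the whole table. Bax and Bcl2 had no named peak, though a KLF1 peak named for Ftl1 lies close to Bax. These are counts over 6 genes and were not tested.

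The wider lists hold 42 p53 targets, 26 BCL2-family genes and 31 caspases, death receptors, adaptors and inhibitors of apoptosis. The authors' deposited table listed 14 of the p53 targets, of which 8 rose in K1-ER, beside 37.9% of all listed genes, and 6 had no call. In K1-NanER 11 of the 14 rose, beside 47.4%, while 2 fell and 1 had no call by the authors' deposited table. In the authors' deposited table their median log2 change was 1.20 in K1-ER, beside 0.72 for all listed genes, and 1.85 in K1-NanER, beside 1.04. Bbc3, Bax, Sesn1, Phlda3 and Trp53i13 are among these 14 genes, so the counts and medians are not independent of the members. KLF1 peaks named 8 of these 14 genes, beside 45.8% of the table, and Nan-KLF1 peaks 4, beside 26.5%, which are shares near those of the table.

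Btg2, Cdkn1a and Zmat3 rose in both lines, as the 4 members did, beside 289 of all 1556 listed genes. Btg2, an antiproliferative gene, was given by the authors' deposited table as 27.0 FPKM in K1, 337 FPKM in K1-ER, then 488 FPKM in K1-NanER, rises of log2 3.64 and 4.18 (both q = 0.00213). Cdkn1a, the cell cycle inhibitor p21, was given as 4.82, 51.3 and 32.5 FPKM in the authors' deposited table, rises of log2 3.41 and 2.75 (both q = 0.00213). Zmat3, an RNA-binding p53 target, went from 8.70 to 21.3 and 31.6 FPKM in the authors' deposited table. Ddit4, a stress-induced brake on mTORC1, rose in K1-ER, from 20.2 to 63.9 FPKM, and had no call in K1-NanER, at 25.3 FPKM (q = 0.745), in the authors' deposited table. Ccng1, Mdm4, Polk and Trp53inp1 rose in K1-NanER without a call in K1-ER by the authors' deposited table, and the difference between the lines was not tested. Aen, an exonuclease of p53-driven death, resembled Bax, with 77.8, 81.8 and 29.6 FPKM in the authors' deposited table, no call in K1-ER (q = 0.949) and a fall of log2 -1.39 in K1-NanER (q = 0.00213).

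Of the BCL2 family 5 of 26 genes were listed in the authors' deposited table, namely Bbc3, Bax, Bcl2, Bcl2l2 and Bnip3l. By the authors' deposited table, 1 of these genes rose, 1 fell and 3 had no call in K1-ER. Of all listed genes 37.9% rose and 11.5% fell there. In K1-NanER 3 rose, 1 fell and 1 had no call, beside 47.4% and 28.3% of all listed genes that rose and fell. Bbc3, Bax and Bcl2 are themselves members, so these counts are not independent of the members. Bcl2l2, a guardian related to BCL2, was given as 8.91, 12.5 and 20.5 FPKM in the authors' deposited table and rose in K1-NanER (log2 1.20, q = 0.0205). Bnip3l, the receptor that clears mitochondria from maturing red cells, was given as 6.84, 10.4 and 15.9 FPKM in the authors' deposited table and rose in K1-NanER (log2 1.22, q = 0.0315). Neither was called in K1-ER.

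Of the caspases, death receptors, adaptors and inhibitors of apoptosis, the authors' deposited table listed 3 of 31 genes. Dffb, the nuclease that cuts DNA in dying cells, was given as 14.0, 120 and 48.5 FPKM in the authors' deposited table, rises of log2 3.10 and 1.79 (both q = 0.00213). Tradd, an adaptor of death receptors, was given as 8.58, 38.1 and 25.0 FPKM and rose in both lines in the authors' deposited table. Ripk3, the kinase of necroptosis, was at 0.1 FPKM in K1, 0.930 FPKM in K1-ER with no call, then 1.26 FPKM in K1-NanER, where the authors' deposited table called it.

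**Figure D3:**
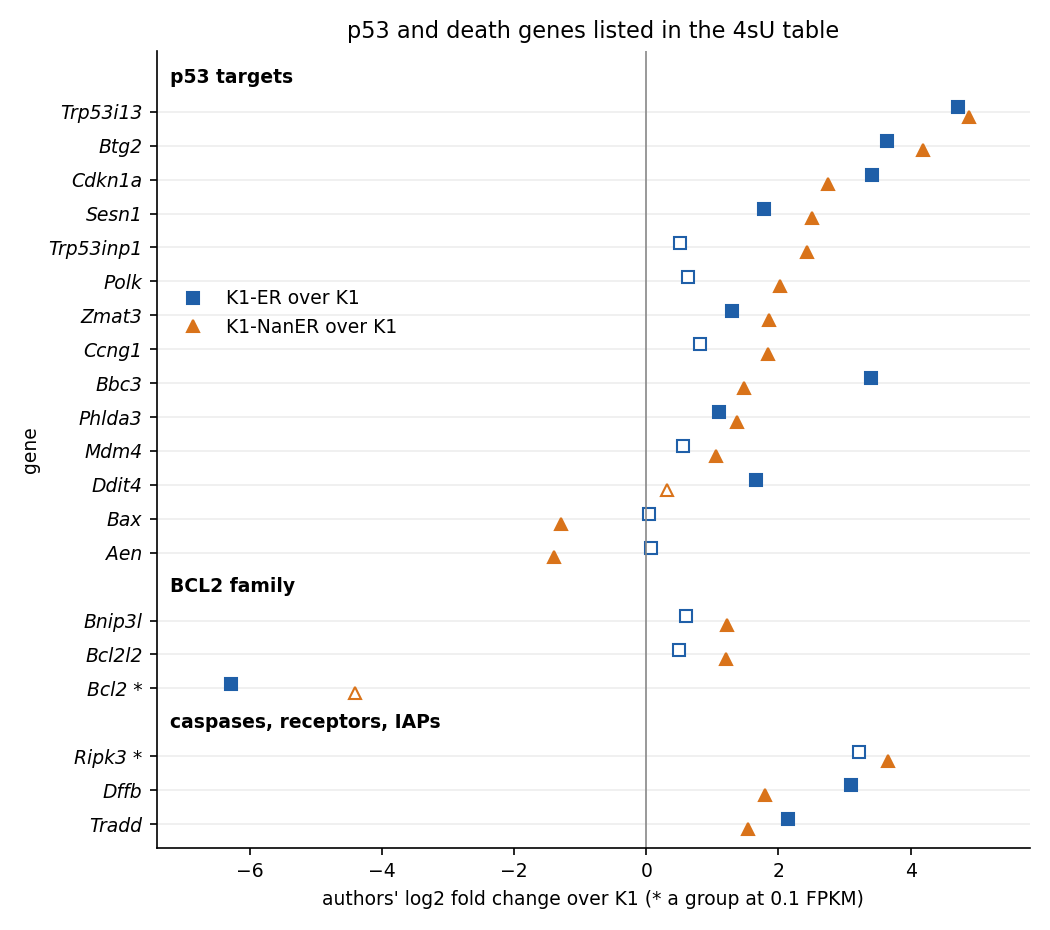
The authors' log2 fold change over K1 of the listed p53 targets, BCL2-family genes and other death genes. K1-ER is shown as blue squares and K1-NanER as orange triangles, filled where q was at most 0.05. Bbc3 and Bax belong to both upper lists and are drawn once, and an asterisk marks genes with a group at 0.1 FPKM, which sets any fold that uses that group. Trp53i13 is farthest right, Bax and Aen lie near 0 in K1-ER and left of 0 in K1-NanER, and Bcl2 is farthest left.

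In fetal liver none of the 6 members has a row. All 793 genes of that table, 100%, have a q under 0.05 and a log2 change of at least 1 in size, so the level of a gene without a row was not analysed here and no absence of change can be read from it. None of the 42 p53 targets or 26 BCL2-family genes has a row either. Among the other death genes Dffb rose, from 6.96 FPKM in wild-type to 14.7 FPKM in Nan/+ liver (log2 1.08, q = 0.0165), in the authors' deposited table. In whole liver, a change in the number of cells of a type and a change in RNA per cell cannot be told apart. In these livers 7 of 9 myeloid markers rose and 6 of 6 skeletal muscle markers fell. Rises were also listed for 2 of 12 erythroid, 1 of 7 hepatocyte and 1 of 6 megakaryocyte markers, and no lymphoid or endothelial marker had a row. The part of these changes in the value of Dffb was not tested.

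The order of the members by level changed between the lines. In K1 the levels in the authors' deposited table ran from Phlda3 through Bax, Bbc3, Bcl2 and Sesn1 down to Trp53i13. In K1-ER the order was Bbc3, Phlda3, Bax, Trp53i13, Sesn1 and Bcl2, and in K1-NanER it was Phlda3, Bbc3, Trp53i13, Bax, Sesn1 and Bcl2. With 1 value per group, it cannot be said which neighbours in these orders differ beyond the spread of libraries. The genes whose pair of log2 changes lay nearest to each member, among 1428 genes above 0.1 FPKM in every group and at 1 FPKM or more in at least 1 in the authors' deposited table, were Slc4a11 and Tst for Bbc3, D4Wsu53e and 1700037H04Rik for Bax, Rfx3 and Sirt1 for Sesn1, Lnpep and Jhdm1d for Phlda3, and Sept3 and Mxd3 for Trp53i13. The distance was smallest for D4Wsu53e, at 0.0171 log2 units, and largest for Mxd3, at 0.765.

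Of the cell type markers, 9 of 12 erythroid genes were listed in the authors' deposited table, and 0 of 9 myeloid, 0 of 6 skeletal muscle and 0 of 5 endothelial ones, with 1 of 7 hepatocyte, 1 of 6 megakaryocyte and 1 of 5 lymphoid genes. Of these 9, 8 rose in K1-ER (median log2 2.14) by the authors' deposited table, beside 37.9% of all listed genes (median 0.72). In K1-NanER 6 rose and 1 fell (median 1.92) by the authors' deposited table, beside 47.4% and 28.3% of all listed genes (median 1.04). The part of this erythroid change in the member values was not tested. Klf1 has no row in the authors' deposited table of 4sU RNA. The oestrogen receptor gene Esr1, whose ligand-binding part is in both fusions, was given by the authors' deposited table as 2.41 FPKM in K1, against 136 FPKM in K1-ER but 70.3 FPKM in K1-NanER. The part of this difference in the member levels was not tested.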

How the data were processed

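RNA labelled with 4sU, fetal liver RNA and ChIP DNA were sequenced. TopHat2 2.0.10, MACS 1.4.2 and build mm9 are named per the submitters' processing notes. Which program made the levels and q values is not given in the sources used here, nor is the step that named each peak's gene and motif. The deposited levels are the authors' FPKM, 1 value per group. The deposited log2 fold changes of 4sU RNA equal the log2 ratio of those levels. Those of fetal liver are headed as corrected and do not always equal that ratio. Each p-value and q value is from the authors' own comparison. The deposited fold enrichment is the authors' ratio for each peak, ChIP against input. The depth of each library is unknown, as no counts are in these tables, and no model was fitted.

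The members and gene lists were chosen with earlier results of these data known. Members, genes of the lists that the tables hold, neighbours within 100 kb and the most alike genes by Euclidean distance over both log2 changes were the genes that could be named. Symbols matched in 6 of 6 cases, and 9 RefSeq promoter windows of GRCm38.p6 were searched. An mm9 genome was not used here, and builds were compared only by distance from a gene's start. Locus starts are printed 1 higher than deposited, peak positions as deposited. Strand is from RefSeq. Peaks overlapped when they shared at least 1 bp. CCNCNCCC was searched on both strands, overlaps allowed. The p53 element was searched as a pair of adjoining decamers of its known consensus, with at most 3 mismatches in 20 bases and the core C and G of each decamer kept; it reads the same on both strands. Analyses used Python 3.11.15, pandas 2.3.3 and numpy 2.4.6, and functions were tested on simulated data. Alternatives were a stricter q, pseudocounts and other ways of giving peaks to genes. A result for 1 gene of the lists is not reported here.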

Additional observations from a re-analysis of the deposited data

How the results depend on the processing

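At q of at most 0.01, 3 of the members were called in K1-ER in place of 5 (Sesn1 and Phlda3 were lost), and 4 in K1-NanER in place of 5 (Bax was lost). The share of all listed genes called at that threshold is not given here, so these losses cannot be set against it. With a pseudocount of 1 the log2 change of Bcl2 in K1-NanER was -2.68 in place of -4.40, the changes of Trp53i13 were 4.08 and 4.25 in place of 4.72 and 4.88, and all 24 member fold changes under pseudocounts of 1 and 0.1 kept their direction. In alternatives chosen after seeing the data, KLF1 peaks within 2 kb of a member by position numbered 7 in place of 4, since peaks named for Cep57l1, Abhd15 and Ftl1 entered. The count of member peaks shared by both factors went from 1 by overlap to 0 by the authors' marks, which leave out pairs with summits over 50 bp apart. No paired analysis was possible because the tables give 1 value per group, and for the same reason no replicate could be left out. Each factor has 1 ChIP library, so peaks have no replicate check.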

Other observations

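Beyond the 6 members, 7 genes of the p53, BCL2-family and caspase lists had a KLF1 and a Nan-KLF1 peak of their own that overlapped each other. The strongest pair was at the promoter of Casp9, the caspase that is activated by cytochrome c, with fold enrichments of 516 (KLF1) and 429 (Nan-KLF1), an overlap of 520 bp and summits 72 bp apart. Overlapping promoter peaks were also present at Casp6 (139 and 201) and Birc6 (373 and 78.0), an inhibitor of apoptosis. Intron pairs lay in Xiap (197 and 113), another inhibitor, and in Bnip1 (257 and 166), where both central motifs were CCACGCCC and the summits were 3 bp apart. Mcl1, a guardian needed by blood precursors, had a distal pair (51.3 and 117). The last of the 7, Btg2, had 2 distal pairs. Of these genes only Btg2 has a row in the expression tables, so the others have no level here. The authors marked the pairs of Birc6, Xiap and Bnip1 as shared, but not those of Casp9, Casp6, Mcl1 and Btg2. Such overlaps are common, since 1215 of all 5326 KLF1 peaks and 1235 of all 2758 Nan-KLF1 peaks overlapped a peak of the other factor.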
